A study of Mus musculus with 20 samples.

Results

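The comparison described here asks which genes responded differently to the culture medium in mouse embryonic stem cells with and without a phosphorylatable eIF2α. It used the 12 libraries of ribosome footprints cut with micrococcal nuclease (MNase) out of 20 libraries in the series, 3 in each of 4 groups. For each gene the log2 difference between LIF and LIF/2i in the knock-in cells, less the same difference in the wild-type cells, was taken as the interaction. A negative value means that the level rose less, or fell more, on going from LIF/2i to LIF in the knock-in cells. Of 12806 genes tested, 43 (0.336%) had an interaction past an adjusted p of 0.05 in edgeR's quasi-likelihood test. Of these, 13 were positive and 30 negative.

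Wild-type cells (WT) were eIF2α+/+ and knock-in cells (KI) were eIF2αA/A, in which alanine replaces the serine that stress kinases phosphorylate. Both genotypes were grown without serum, on KnockOut serum replacement with leukaemia inhibitory factor (LIF) at 1000 U/mL, and were kept for 6 days either in LIF/2i or in LIF. LIF/2i adds PD0325901, an inhibitor of the kinase MEK, and CHIR99021, an inhibitor of GSK3. All cells were washed with cycloheximide, which holds ribosomes on the mRNA, and footprints were taken from the monosome peak after digestion. The sources used here do not give the number of cell lines or clones behind each genotype, or whether the replicates came from separate cultures. The p-values therefore measure the spread between these libraries, which may be technical, and line and genotype cannot be told apart.

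Phosphorylation of eIF2α by stress kinases lowers general initiation and lets ribosomes pass the upstream reading frames of the Atf4 mRNA, so that more of the transcription factor ATF4 is made. ATF4 in turn raises genes for amino acid synthesis, amino acid transport and tRNA charging, a programme known as the integrated stress response. The inhibitor pair holds stem cells in the naive state by blocking ERK signalling and stabilising β-catenin, whereas cells in LIF alone are a mixture in which ERK targets and early lineage genes are present. Footprint counts follow both the amount of an mRNA and the ribosomes on each copy, and matched RNA-seq libraries were not used here. In these bulk lysates, fewer cells of a type and fewer footprints per cell cannot be told apart.

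Total counts were 2859076 to 3912780 in WT in LIF/2i, 2127850 to 5461210 in WT in LIF, 6998177 to 8374086 in KI in LIF/2i and 6560173 to 8894080 in KI in LIF, so that depth separated the genotypes but overlapped between media. KI replicate 1 of both media stood apart on the third principal component, which held 9.94% of the variance, at -44.4 and -45.5 against -1.0 to 21.6 in the other libraries. The stem cell marker Pou5f1 was present in every library, at 809.5, 849 and 826 CPM in WT in LIF/2i and 898, 629 and 869 CPM in WT in LIF. KI libraries were at 887, 778 and 818 CPM in LIF/2i against 758, 726 and 892 CPM in LIF, with an interaction of -0.01 ± 0.19 (SE; adjusted p = 0.99). Levels are given in CPM, counts scaled to library size by TMM and not divided by length, with replicates 1, 2 and 3 in that sequence. Eif2s1, which encodes eIF2α, had an interaction of -0.35 ± 0.18 (SE; adjusted p = 0.46), and its level shows nothing about the substituted residue.

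The called genes fell into 4 kinds of medium response. In 10 genes the difference between media was called in WT and not in KI, and in 16 it was called in KI and not in WT. In 12 genes both genotypes changed, in opposite directions, and in 5 both changed in the same direction by different amounts. These 4 kinds describe the calls within each genotype, which come from the libraries that gave the interaction. Across all genes the medium response was called for 2686 (21%) in WT and 2403 (18.8%) in KI, and the genotype difference for 3255 (25.4%) in LIF/2i and 1738 (13.6%) in LIF. Among the 43 the genotype difference was called in LIF alone for 11 genes, all lower in KI, and in LIF/2i alone for 19, with opposite signs in 11 and the same sign in 2. In LIF 7.49% of all genes were called as higher in KI and 6.08% as lower. The libraries of the 2 media did not overlap for 35 of the 43 in WT, against 42.5% of all genes, and for 39 in KI, against 34.9%. The WT and KI libraries did not overlap in LIF for 30 of the 43 genes against 35.5% of all genes, and in LIF/2i for 37 of the 43 against 39.8% of all genes. Since the interaction is built from these levels, nothing further is read from those counts. Without 1 library the number of called genes fell to 10 without WT LIF replicate 1, 16 without WT LIF replicate 3 or KI LIF/2i replicate 2, 20 and 26 without WT LIF/2i replicates 1 and 3, 24 without KI LIF replicate 2 and 28 without WT LIF replicate 2. It was 98 without KI LIF replicate 1 and 145 without KI LIF/2i replicate 1.

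**Figure D1:**
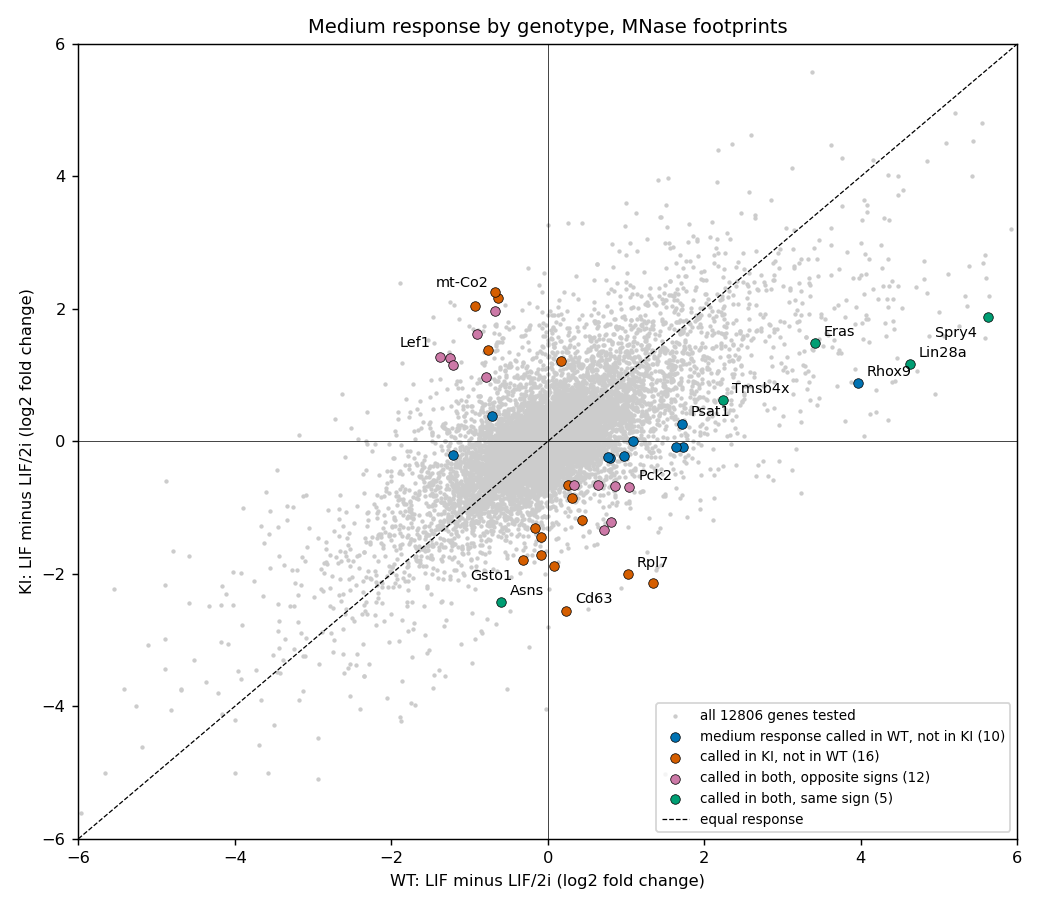
Each point is a gene, with the log2 difference between LIF and LIF/2i in WT on the x axis and in KI on the y axis; coloured points are the 43 genes called for the interaction and 37 genes of all those tested lie outside the axes, which end at 6. The called genes lie away from the dashed line of equal response, with Lin28a, Spry4 and Eras far to the right and mt-Co2 and Lef1 at the upper left.

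Of the called genes, 2 were ATF4 and CHOP targets of amino acid synthesis (Psat1 and Asns) and 4 were tRNA synthetase genes. They are described with Pck2, a metabolic gene in none of the lists. Asns, Psat1, Pck2 and the tRNA synthetase genes Nars, Cars, Aars and Yars all had lower levels in KI than in WT in LIF relative to LIF/2i. In WT, Psat1, Pck2 and all 4 of these synthetase genes rose in LIF, whereas in KI none of these 6 passed the test as higher and Pck2 fell. Asns, which encodes asparagine synthetase, fell in both genotypes, by more in KI.

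Psat1, the phosphoserine aminotransferase of serine synthesis, was at 108, 132 and 127 CPM in WT in LIF/2i and 397, 329 and 479 CPM in WT in LIF. The level in KI was 149, 155 and 144 CPM in LIF/2i against 195, 171 and 175 CPM in LIF. All 3 WT libraries in LIF lay above the other 9 libraries. The medium response was 1.71 ± 0.14 (log2, SE) in WT and 0.27 ± 0.14 in KI, and the interaction was -1.45 ± 0.20 (SE; adjusted p = 0.0081). Asns was at 1216, 1356 and 1231 CPM in WT in LIF/2i and 848, 658 and 1012 CPM in WT in LIF. For KI the values were 1798, 1418 and 1819 CPM in LIF/2i against 413, 265 and 255 CPM in LIF. The KI libraries in LIF were the lowest of the 12, and no library of one medium overlapped those of the other within a genotype. The log2 difference between media was -0.59 in WT and -2.43 in KI, which left an interaction of -1.84 ± 0.27 (SE; adjusted p = 0.012). Pck2, the mitochondrial phosphoenolpyruvate carboxykinase, was at 58.9, 67.8 and 37.6 CPM in WT in LIF/2i and 105, 84.4 and 146 CPM in WT in LIF. With the knock-in it was at 51.6, 51.6 and 54.2 CPM in LIF/2i against 29.5, 32.6 and 34.96 CPM in LIF. The levels moved in opposite directions, 1.04 ± 0.22 in WT and -0.70 ± 0.22 in KI, with an interaction of -1.74 ± 0.31 (SE; adjusted p = 0.030). In LIF the 2 genotypes did not overlap, whereas in LIF/2i they did.

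Nars, the asparaginyl-tRNA synthetase gene, was at 467, 465 and 431 CPM in WT in LIF/2i and 974, 809 and 1109 CPM in WT in LIF. Levels in KI were 565, 549 and 536 CPM in LIF/2i against 546, 528 and 575 CPM in LIF, and the KI libraries of the 2 media overlapped. Its interaction was -1.09 ± 0.16 (SE; adjusted p = 0.012). Cars, which charges cysteine tRNA, was at 137, 149.9 and 129.6 CPM in WT in LIF/2i and 261, 240.1 and 316 CPM in WT in LIF. The knock-in cells had 219, 234 and 229.8 CPM in LIF/2i against 176, 189.9 and 220.4 CPM in LIF. KI was above WT in LIF/2i without overlap and below it in LIF without overlap, and the interaction was -1.19 ± 0.18 (SE; adjusted p = 0.012). Aars, for alanine, had levels of 442, 521 and 444 CPM in WT in LIF/2i and 809.9, 720.2 and 913 CPM in WT in LIF. Knock-in libraries gave 699.6, 723 and 704 CPM in LIF/2i against 647, 521 and 628 CPM in LIF. The KI libraries of Aars in LIF/2i lay above those of WT. Yars, for tyrosine, had levels of 116, 138 and 119 CPM in WT in LIF/2i and 199, 201 and 237 CPM in WT in LIF. The KI levels of Yars were 192, 205 and 195 CPM in KI in LIF/2i and 152, 171 and 182 CPM in KI in LIF. Both followed the pattern of Cars, higher in KI in LIF/2i and lower in KI in LIF, with interactions of -1.04 ± 0.17 (SE; adjusted p = 0.020) and -1.0 ± 0.17 (SE; adjusted p = 0.022); for Yars the genotype difference in LIF did not pass the test (adjusted p = 0.077).

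**Figure D2:**
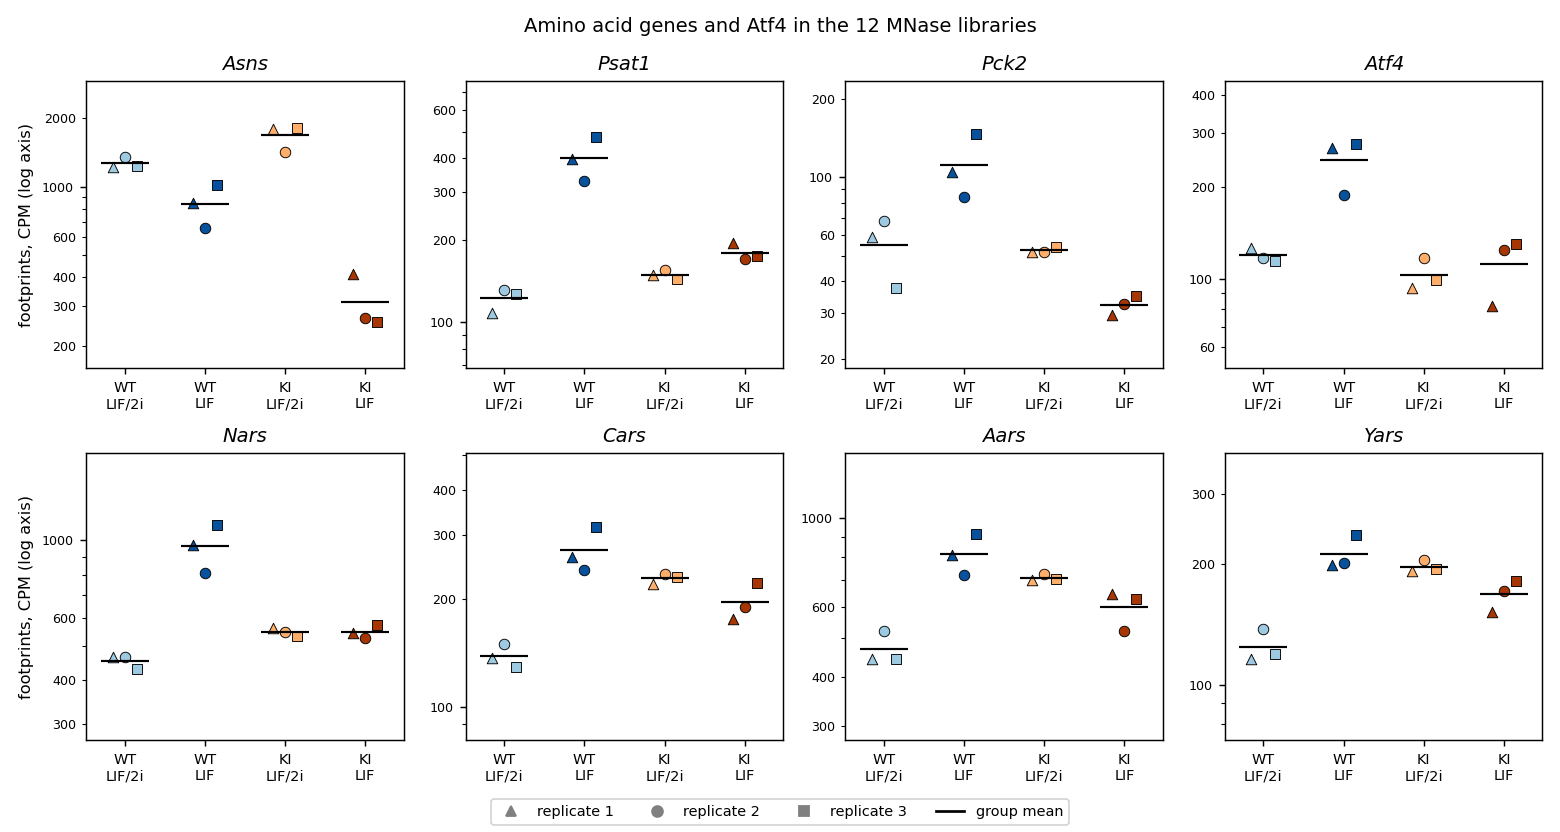
Footprint levels in CPM (log axis) of 8 genes in each of the 12 MNase libraries; symbols are replicates and the bar is the arithmetic mean of the group. Psat1, Nars and Atf4 were highest in WT in LIF, and Asns was lowest in KI in LIF.

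Atf4 itself was at 127, 118 and 115 CPM in WT in LIF/2i and 267, 189 and 277 CPM in WT in LIF. Across the KI libraries it was at 93.3, 117 and 99.1 CPM in LIF/2i against 81.9, 125 and 129.9 CPM in LIF. Atf4 rose in WT by 1.03 (log2; adjusted p = 0.0021), and its difference in KI was 0.12 ± 0.18 (SE). The interaction of Atf4, -0.91 ± 0.26 (SE; adjusted p = 0.18), did not pass the test over all genes. Atf5, a related factor whose mRNA also has regulatory upstream reading frames, was at 5.67, 9.68 and 5.66 CPM in WT in LIF/2i and 31.9, 31.2 and 42.02 CPM in WT in LIF. KI libraries were at 7.18, 8.58 and 9.74 CPM in LIF/2i against 5.08, 8.68 and 13.4 CPM in LIF, and its interaction of -2.22 ± 0.47 (SE; adjusted p = 0.065) missed the threshold as well.

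Among 32 tested targets of ATF4 and CHOP, 2 were called as lower in the interaction (Psat1 and Asns) and none as higher. The median interaction of this list was -0.91 against -0.02 over all genes, and 27 of the 32 were negative. In WT, 20 of them rose in LIF and 2 fell, with 9.97% of all genes rising, and in KI 3 rose and 3 fell, with 8.4% of all genes rising and 10.4% falling. Members that were not called included the stress-induced Nupr1 at -3.04, the serine synthesis gene Phgdh at -2.02, the pseudokinase gene Trib3 at -1.75 and the glutathione-degrading Chac1 at -2.20. At the other end Ddit4 was at 0.56 and Ero1l at 0.65. Among 20 cytosolic tRNA synthetase genes, 4 were called as lower and none as higher, with a median of -0.49. In WT 11 of them rose in LIF and none fell, and in KI 2 rose and 1 fell, beside the shares of all genes just given. Between genotypes, 11 of the 20 were higher in KI in LIF/2i and none lower, and in LIF 2 were higher and 4 lower. Of the 32 ATF4 and CHOP targets, 4 were higher in KI in LIF/2i and 6 lower, and in LIF none was higher and 17 were lower. Of all genes, 13.9% were higher in KI and 11.5% lower in LIF/2i, and 7.49% and 6.08% in LIF. The uncalled synthetases reached from Gars at -0.87 to Dars at 0.15. Of 18 genes whose upstream reading frames are known to respond to this pathway, none was called, with a median of -0.63.

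The windows of 250 bases before the start sites, from RefSeq on GRCm38.p6, were searched for TGATGNAAN, the core of the composite C/EBP and ATF element through which ATF4 acts, on both strands. This motif was in 4 of the 33 called genes that had a window (12.1%), in 232 of 10121 tested genes with a window (2.29%), in 8 of 28 members of the ATF4 and CHOP list (28.6%) and in 3 of 13 synthetase genes (23.1%). Of all 32851 windows, 3.44% held it. By sign, it was in 3 of 24 called genes with a negative interaction (12.5%) and in 1 of 9 with a positive one (11.1%). Of the amino acid genes, Psat1, Nars, Cars and Yars had no match or no window. A match is a description of letters in this window and no evidence of binding. The 4 matches in called genes are shown because Asns, Aars and Pck2 belong to the group above, while Sap18 does not and moved the other way. Each run is written 5′ to 3′ on the strand of the gene with the motif, or its reverse complement, in capitals:
Asns, chr6:7693210-7693252, strand -: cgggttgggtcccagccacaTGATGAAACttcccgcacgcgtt
Aars, chr8:111033709-111033757, strand +: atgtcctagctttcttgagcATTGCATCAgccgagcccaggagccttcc
Pck2, chr14:55540142-55540190, strand +: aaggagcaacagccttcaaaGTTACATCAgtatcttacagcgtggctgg
Sap18, chr14:57797944-57797992, strand +: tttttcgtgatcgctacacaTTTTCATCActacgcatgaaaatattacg
In Asns the motif reads along the gene, 23 to 15 bases before the start site. In the other 3 genes it reads on the opposite strand, 113 to 105 bases before the start of Aars, 104 to 96 before that of Pck2 and 225 to 217 before that of Sap18.

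Leaving out 1 library at a time, Psat1 kept its call in 12 of 12 fits, Asns and Nars in 10, Cars in 8, Aars and Yars in 5 and Pck2 in 4. The highest adjusted p was 0.053 for Asns, 0.060 for Nars and 0.053 for Cars, each without WT LIF replicate 1. It was 0.090 for Aars and 0.094 for Yars without WT LIF/2i replicate 1, and 0.10 for Pck2 without KI LIF replicate 2.

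A group of genes that rose strongly in WT when the inhibitors were left out was already high in KI in LIF/2i. Lin28a, Spry4, Eras and Tmsb4x rose in both genotypes, by 4.63, 5.62, 3.41 and 2.24 (log2) in WT and by 1.17, 1.88, 1.48 and 0.62 in KI. All 4, and Trim44, were higher in KI than in WT in LIF/2i, and none of the 5 differed past the threshold between genotypes in LIF.

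Lin28a, an RNA-binding protein that blocks let-7 maturation, was at 6.38, 6.46 and 5.66 CPM in WT in LIF/2i and 124, 182 and 149.6 CPM in WT in LIF. The level in KI was 98.6, 45.3 and 36.7 CPM in LIF/2i against 169, 102 and 134 CPM in LIF. Every KI library in LIF/2i lay well above the WT libraries of that medium, and the genotypes overlapped in LIF. KI replicate 1 was the highest KI library of both media. The difference between genotypes was 3.29 ± 0.38 (log2, SE) in LIF/2i and -0.17 ± 0.30 in LIF, and the interaction was -3.46 ± 0.49 (SE; adjusted p = 0.0092). Spry4, a feedback inhibitor of receptor tyrosine kinase signalling that ERK induces, was at 1.42, 2.05 and 0.492 CPM in WT in LIF/2i and 80.8, 54.8 and 57.1 CPM in WT in LIF. For KI the values were 18.3, 17.5 and 11.2 CPM in LIF/2i against 35.7, 64.1 and 72.8 CPM in LIF. Its genotype difference was 3.598 ± 0.45 in LIF/2i and -0.15 ± 0.29 in LIF, and the interaction was -3.75 ± 0.55 (SE; adjusted p = 0.012). The WT libraries in LIF/2i held few reads of Spry4, so the size of its difference in LIF/2i and of its interaction is uncertain. Eras, a constitutively active Ras of embryonic stem cells, was at 5.67, 9.097 and 8.11 CPM in WT in LIF/2i and 86.2, 80.3 and 80.4 CPM in WT in LIF. With the knock-in it was at 39.7, 28.3 and 30.9 CPM in LIF/2i against 88.01, 95.2 and 92.1 CPM in LIF. In LIF all 6 libraries lay between 80.3 and 95.2 CPM, and the interaction was -1.93 ± 0.25 (SE; adjusted p = 0.0076).

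Tmsb4x, which encodes the actin-binding thymosin β4, was at 81.9, 68.1 and 83.8 CPM in WT in LIF/2i and 378, 417 and 312 CPM in WT in LIF. Levels in KI were 186, 216 and 151 CPM in LIF/2i against 384, 230.4 and 238 CPM in LIF, with an interaction of -1.62 ± 0.29 (SE; adjusted p = 0.028). Trim44, of the tripartite motif family, was at 8.51, 8.51 and 6.88 CPM in WT in LIF/2i and 19.6, 25.8 and 27.96 CPM in WT in LIF. The knock-in cells had 40.6, 28.7 and 23.01 CPM in LIF/2i against 31.5, 24.8 and 30.3 CPM in LIF, and those of the 2 media overlapped. Its interaction was -1.73 ± 0.33 (SE; adjusted p = 0.049). Lin28a, Spry4 and Eras kept their calls in all 12 fits without 1 library. Fitted with limma-voom instead of edgeR, Spry4 was not called. Tmsb4x and Trim44 kept their calls in 3 of the 12 fits each, with adjusted p up to 0.090 without WT LIF/2i replicate 1 and 0.15 without KI LIF replicate 2.

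Among 20 tested MEK/ERK targets Spry4 was the called member, with a list median of -0.39. Other feedback genes of the pathway were not called, with Dusp6 at -0.43, Spry1 at -0.08, Spry2 at 0.05 and Dusp4 at -2.13. Lin28a was the called member of 15 core pluripotency genes, whose median was -0.28. Of 20 naive pluripotency genes none was called, with a median of -0.28. Nanog, a naive factor, was at 1256, 1431 and 1505 CPM in WT in LIF/2i and 1095, 867 and 1028 CPM in WT in LIF. Knock-in libraries gave 1325, 1298 and 1303 CPM in LIF/2i against 731, 561 and 475 CPM in LIF. Nanog fell in both genotypes, with log2 differences of -0.49 in WT and -1.15 in KI, and its interaction was -0.66 ± 0.21 (SE; adjusted p = 0.21).

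**Figure D3:**
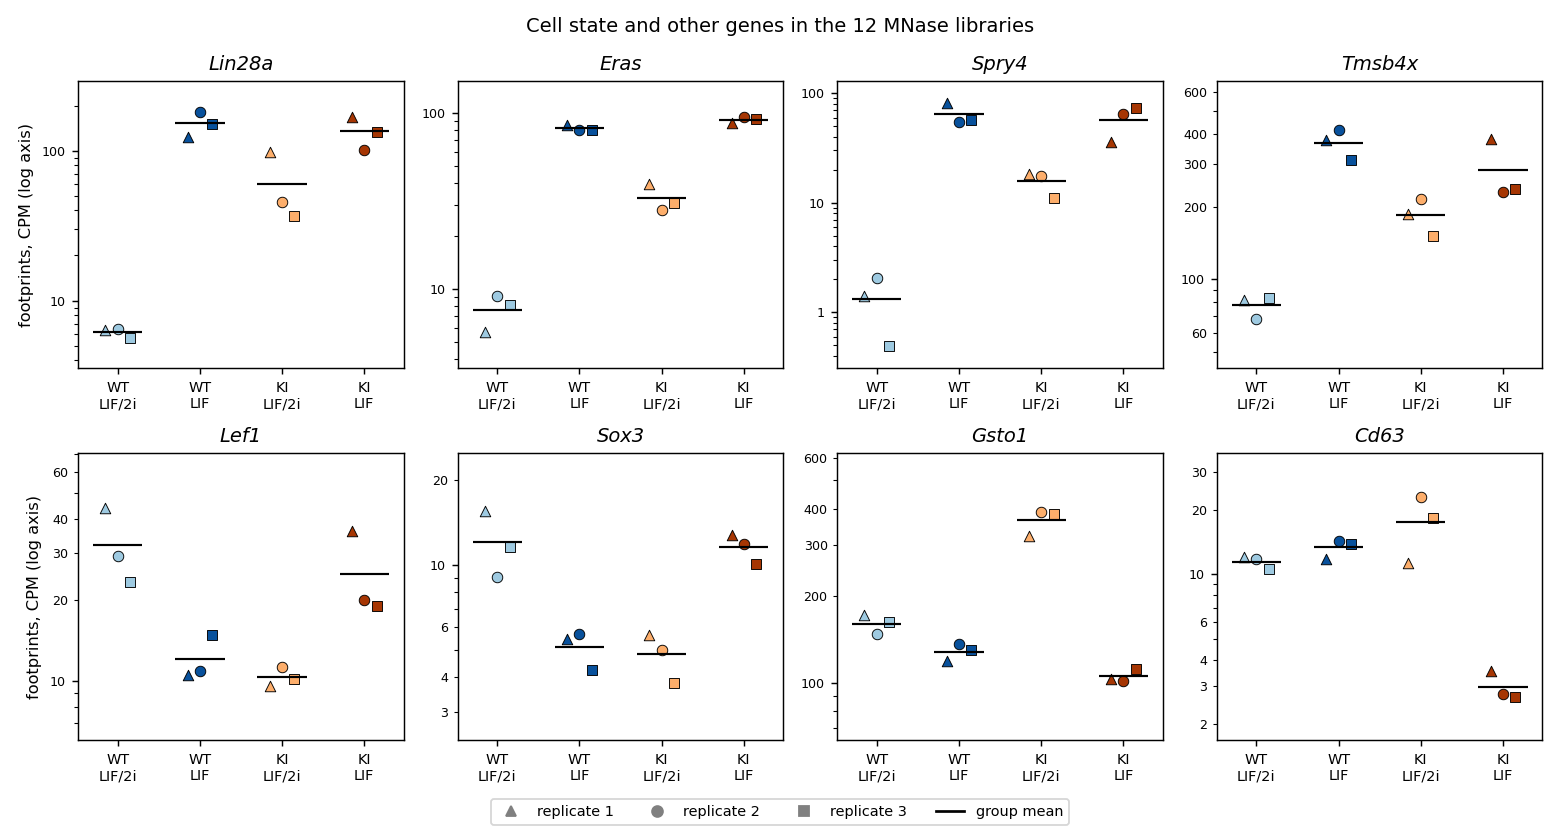
Footprint levels in CPM (log axis) of 8 called genes in each of the 12 MNase libraries; symbols are replicates and the bar is the arithmetic mean of the group. Lin28a, Eras, Spry4 and Tmsb4x were lowest in WT in LIF/2i, Lef1 and Sox3 crossed between genotypes, and Gsto1 and Cd63 were lowest in KI in LIF.

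The transcription factor genes Lef1 and Sox3 changed in opposite directions, falling in WT and rising in KI. Lef1, which acts with β-catenin and marks the formative state, was at 43.97, 29.1 and 23.4 CPM in WT in LIF/2i and 10.5, 10.8 and 14.8 CPM in WT in LIF. Across the KI libraries it was at 9.62, 11.3 and 10.2 CPM in LIF/2i against 36.2, 19.97 and 18.99 CPM in LIF. WT in LIF and KI in LIF/2i shared the low range, from 9.62 to 14.8 CPM. The interaction of Lef1 was 2.65 ± 0.42 (SE; adjusted p = 0.015). Sox3, a SoxB1 factor of early ectoderm, was at 15.6, 9.097 and 11.6 CPM in WT in LIF/2i and 5.48, 5.696 and 4.22 CPM in WT in LIF. KI libraries were at 5.65, 4.99 and 3.81 CPM in LIF/2i against 12.8, 11.9 and 10.1 CPM in LIF, and its interaction was 2.505 ± 0.39 (SE; adjusted p = 0.014). Both kept the call in 9 of 12 fits without 1 library, with adjusted p up to 0.063 for Lef1 without WT LIF replicate 1 and 0.072 for Sox3 without WT LIF replicate 3.

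Of 19 tested formative and primed genes these 2 were called as higher and none as lower, and the list median was 0.69. In WT 5 members rose in LIF and 5 fell, and in KI 12 rose and 3 fell, against 9.97% and 11% of all genes in WT and 8.4% and 10.4% in KI. Uncalled members included the POU factor gene Pou3f1 at 2.23, the kinase gene Pim2 at 1.97 and the Nodal antagonist gene Lefty1 at 1.90, while Foxd3 was at -1.13 and Otx2 at -0.18. Of 13 WNT/β-catenin targets Lef1 was the called member.

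In a further 9 genes the level fell in KI in LIF and did not pass the test between media in WT. They were Gsto1, Cd63, Ptges, Spp1, Cox5a, Amotl2, Slc25a20, Paics and Cdc5l, with log2 differences in KI from -2.56 to -0.66.

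Gsto1, a glutathione transferase of the omega class, had the smallest adjusted p of all genes. It was at 171, 147 and 162 CPM in WT in LIF/2i and 119, 136 and 129.9 CPM in WT in LIF. The level in KI was 321, 389 and 382 CPM in LIF/2i against 103, 101 and 112 CPM in LIF. KI was above WT in LIF/2i and below it in LIF, without overlap in either medium, and the interaction was -1.47 ± 0.17 (SE; adjusted p = 0.0070). Cd63, a tetraspanin of late endosomes, was at 12.1, 11.7 and 10.6 CPM in WT in LIF/2i and 11.9, 14.4 and 13.9 CPM in WT in LIF. For KI the values were 11.3, 23.04 and 18.3 CPM in LIF/2i against 3.54, 2.75 and 2.68 CPM in LIF, and the 3 KI libraries in LIF lay below the other 9. The interaction of Cd63 was -2.79 ± 0.39 (SE; adjusted p = 0.0092). Ptges, a prostaglandin E synthase, was at 28.7, 23.8 and 19.9 CPM in WT in LIF/2i and 30.6, 23.1 and 23.4 CPM in WT in LIF. With the knock-in it was at 26.4, 21.4 and 26.5 CPM in LIF/2i against 6.0005, 7.38 and 6.81 CPM in LIF, so that 9 libraries shared one range and KI in LIF lay below it. The interaction of Ptges was -1.96 ± 0.29 (SE; adjusted p = 0.012).

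Spp1, which encodes the secreted phosphoprotein osteopontin, was at 1439, 1029.7 and 1244 CPM in WT in LIF/2i and 1136, 1035 and 1335 CPM in WT in LIF. Levels in KI were 1870.0, 1609 and 1580.1 CPM in LIF/2i against 678, 546 and 641 CPM in LIF. Its genotype difference was 0.45 ± 0.14 in LIF/2i and -0.91 ± 0.14 in LIF (log2, SE), and the interaction was -1.36 ± 0.20 (SE; adjusted p = 0.012). Cox5a, a nuclear-encoded subunit of cytochrome c oxidase, was at 288, 318 and 267 CPM in WT in LIF/2i and 292, 238 and 251 CPM in WT in LIF. The knock-in cells had 330.4, 394 and 353 CPM in LIF/2i against 158, 159 and 118 CPM in LIF, with an interaction of -1.15 ± 0.20 (SE; adjusted p = 0.024). Slc25a20, the carnitine and acylcarnitine carrier of the inner mitochondrial membrane, was at 195, 275 and 247 CPM in WT in LIF/2i and 287, 289 and 312 CPM in WT in LIF. Knock-in libraries gave 262, 291 and 311 CPM in LIF/2i against 162, 140.2 and 178 CPM in LIF, and its interaction was -1.16 ± 0.20 (SE; adjusted p = 0.022). For these 3 genes the KI libraries in LIF were below all others.

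Amotl2, of the angiomotin family that binds YAP, was at 171, 123 and 150.2 CPM in WT in LIF/2i and 135, 147 and 135 CPM in WT in LIF. Across the KI libraries it was at 179.6, 309.7 and 249 CPM in LIF/2i against 92.5, 58.9 and 73.6 CPM in LIF, with an interaction of -1.63 ± 0.29 (SE; adjusted p = 0.028). KI in LIF held its 3 lowest libraries. Paics, an enzyme of purine synthesis, was at 384, 314 and 314 CPM in WT in LIF/2i and 408, 379 and 420.4 CPM in WT in LIF. KI libraries were at 538, 619 and 581 CPM in LIF/2i against 399, 342 and 356 CPM in LIF. Paics was higher in KI in LIF/2i without overlap and overlapped between genotypes in LIF, and its interaction was -0.92 ± 0.16 (SE; adjusted p = 0.028). Cdc5l, a core splicing factor, was at 66.7, 68.7 and 52.9 CPM in WT in LIF/2i and 88.1, 84.1 and 81.6 CPM in WT in LIF. The level in KI was 89.6, 135 and 109 CPM in LIF/2i against 54.3, 41.7 and 50.3 CPM in LIF, with an interaction of -1.62 ± 0.24 (SE; adjusted p = 0.012). KI in LIF/2i held the 3 highest libraries of Cdc5l. Clcn5, an endosomal chloride and proton exchanger, changed instead in WT, from 19.1, 18.2 and 18.7 CPM in LIF/2i up to 55.7, 72.97 and 57.1 CPM in LIF. In KI it was at 32.7, 49.03 and 42.9 CPM in LIF/2i against 37.8, 38.8 and 40.3 CPM in LIF, between the WT media, and its interaction was -1.82 ± 0.25 (SE; adjusted p = 0.0081).

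Gsto1, Cd63 and Clcn5 kept their calls in all 12 fits without 1 library, Ptges and Cdc5l in 11, Spp1 in 10, Cox5a in 6, Slc25a20 in 4, Paics in 3 and Amotl2 in 2. Without WT LIF replicate 1 the adjusted p was 0.052 for Ptges, 0.052 for Cdc5l, 0.052 for Spp1 and 0.096 for Cox5a. It reached 0.082 for Slc25a20 and 0.12 for Paics without WT LIF replicate 3, and 0.084 for Amotl2 without KI LIF replicate 2.

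The 5 nuclear genes Zfhx3, Clcn3, Pidd1, Ccdc136 and Abhd8 had positive interactions. All of them were lower in KI than in WT in LIF/2i, and none differed past the threshold between genotypes in LIF. Zfhx3, a homeobox transcription factor, was at 102, 99.8 and 120.2 CPM in WT in LIF/2i and 120.5, 137 and 105 CPM in WT in LIF. For KI the values were 52.2, 53.6 and 51.8 CPM in LIF/2i against 116, 121 and 130.1 CPM in LIF, so that KI in LIF/2i alone was low, and its interaction was 1.05 ± 0.18 (SE; adjusted p = 0.026). Clcn3, a relative of Clcn5, was at 142, 126 and 153 CPM in WT in LIF/2i and 64.8, 64.3 and 52.8 CPM in WT in LIF. With the knock-in it was at 97.7, 78.99 and 85.7 CPM in LIF/2i against 74.6, 78.2 and 75.6 CPM in LIF, with an interaction of 1.02 ± 0.19 (SE; adjusted p = 0.036). WT in LIF/2i held the 3 highest libraries of Clcn3. Pidd1, a death-domain protein that activates a caspase and is induced by p53, was at 67.4, 58.4 and 63.7 CPM in WT in LIF/2i and 37.9, 35.8 and 41.7 CPM in WT in LIF. Levels in KI were 37.3, 34.6 and 30.8 CPM in LIF/2i against 47.4, 41.98 and 44.6 CPM in LIF, with an interaction of 1.096 ± 0.20 (SE; adjusted p = 0.029).

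Ccdc136 was at 64.9, 55.5 and 62.9 CPM in WT in LIF/2i and 37.9, 32.3 and 35.9 CPM in WT in LIF. The knock-in cells had 12.5, 23.8 and 26.7 CPM in LIF/2i against 45.2, 43.3 and 35.3 CPM in LIF, and its interaction was 1.76 ± 0.32 (SE; adjusted p = 0.035). KI in LIF/2i held the 3 lowest libraries. Abhd8, of the α/β-hydrolase family, was at 15.96, 16.4 and 25.8 CPM in WT in LIF/2i and 12.8, 9.76 and 11.96 CPM in WT in LIF. Knock-in libraries gave 3.82, 4.35 and 7.62 CPM in LIF/2i against 12.5, 15.8 and 13.2 CPM in LIF, with an interaction of 2.15 ± 0.41 (SE; adjusted p = 0.045). Clcn3, Pidd1, Ccdc136 and Abhd8 kept their calls in 3 of the 12 fits without 1 library and Zfhx3 in 4. The highest adjusted p was 0.12 for Clcn3 and 0.083 for Zfhx3 without KI LIF/2i replicate 2, 0.10 for Pidd1 without WT LIF replicate 1, and 0.11 for Ccdc136 and 0.15 for Abhd8 without KI LIF replicate 2.

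Among mitochondrially encoded genes mt-Co3 and mt-Co2, and among histone genes H2ac18 and Hist1h4m, were lowest in KI in LIF/2i. The first pair is translated by the ribosomes of the mitochondrion. Whether the cycloheximide wash and the monosome peak hold those ribosomes as they do cytosolic ones was not tested. The cytochrome oxidase subunit gene mt-Co3 was at 84.4, 93.6 and 70.8 CPM in WT in LIF/2i and 41.98, 59.4 and 52.9 CPM in WT in LIF. Across the KI libraries it was at 8.704, 4.097 and 6.07 CPM in LIF/2i against 20.002, 27.5 and 26.2 CPM in LIF. It fell in WT and rose in KI, was lower in KI in both media, and had an interaction of 2.66 ± 0.34 (SE; adjusted p = 0.0076). For mt-Co2 the WT levels were 70.9, 80.7 and 57.04 CPM in WT in LIF/2i and 34.2, 61.8 and 37.1 CPM in WT in LIF. KI libraries were at 5.34, 2.56 and 5.79 CPM in LIF/2i against 14.3, 24.6 and 22.1 CPM in LIF, with an interaction of 2.81 ± 0.44 (SE; adjusted p = 0.014). The other 11 of 13 tested mitochondrial genes were not called, among them mt-Atp6 at 2.31, mt-Co1 at 0.03 and mt-Nd1 at 0.15. The list median was 0.40. Between genotypes, 10 of the 13 were lower in KI in LIF/2i and 6 in LIF, and none was higher in either medium. Of all genes, 11.5% were lower in KI in LIF/2i and 6.08% in LIF.

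The H2A gene H2ac18 was at 35.8, 44.9 and 32.9 CPM in WT in LIF/2i and 13.7, 18.99 and 26.9 CPM in WT in LIF. The level in KI was 5.96, 2.82 and 4.52 CPM in LIF/2i against 11.2, 15.3 and 14.1 CPM in LIF, with an interaction of 2.52 ± 0.41 (SE; adjusted p = 0.018). Its 3 lowest libraries were those of KI in LIF/2i. Hist1h4m, an H4 gene, was at 54.6, 47.8 and 53.4 CPM in WT in LIF/2i and 16.9, 23.6 and 26.02 CPM in WT in LIF. For KI the values were 13.1, 5.25 and 5.65 CPM in LIF/2i against 15.1, 18.1 and 19.7 CPM in LIF, and its interaction was 2.35 ± 0.42 (SE; adjusted p = 0.028). Histone genes and mitochondrial genes have near-identical copies elsewhere in the genome. The sources used here do not say how reads that match several places were counted, so the level of any single copy is uncertain.

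The same uncertainty holds for Tmsb4x, Ahcy, Sap18, Actb, Rplp0, Rpl7, Rpl37a and Eif4a3, which have processed pseudogenes or close relatives. Ahcy, the enzyme that hydrolyses S-adenosylhomocysteine, was at 4.96, 8.803 and 5.41 CPM in WT in LIF/2i and 4.56, 3.25 and 2.64 CPM in WT in LIF. With the knock-in it was at 0.916, 0.512 and 0.706 CPM in LIF/2i against 3.38, 3.04 and 2.57 CPM in LIF, with an interaction of 2.98 ± 0.55 (SE; adjusted p = 0.037). Sap18, a subunit of the Sin3 deacetylase complex, was at 8.16, 9.097 and 7.13 CPM in WT in LIF/2i and 4.11, 6.24 and 4.75 CPM in WT in LIF. Levels in KI were 0.611, 0.512 and 1.27 CPM in LIF/2i against 5.39, 3.62 and 2.68 CPM in LIF, and its interaction was 2.92 ± 0.56 (SE; adjusted p = 0.045). Both rest on few reads, being under 5 CPM on average over the 12 libraries, and both were lowest in KI in LIF/2i.

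In the opposite direction, Rplp0, Rpl37a, Rpl7, Eif4a3, Actb, Ubl5 and Pabpc4 were higher in LIF than in LIF/2i in WT and lower in KI. Rplp0, a stalk protein of the large ribosomal subunit, was at 34.7, 39.03 and 28.03 CPM in WT in LIF/2i and 48.8, 55.6 and 62.6 CPM in WT in LIF. The knock-in cells had 63.4, 60.4 and 50.1 CPM in LIF/2i against 25.7, 23.6 and 19.8 CPM in LIF, with an interaction of -2.06 ± 0.25 (SE; adjusted p = 0.0076). In the MNase libraries the genotypes crossed without overlap in either medium. Rpl37a was at 17.4, 18.2 and 17.5 CPM in WT in LIF/2i and 31.9, 30.1 and 34.3 CPM in WT in LIF, and at 39.9, 33.3 and 29.4 CPM in KI in LIF/2i and 23.1, 23.01 and 18.4 CPM in KI in LIF. Rpl7 was at 7.09, 4.695 and 3.93 CPM in WT in LIF/2i and 10.5, 8.14 and 12.7 CPM in WT in LIF, and at 6.72, 13.3 and 9.88 CPM in KI in LIF/2i and 2.15, 3.33 and 2.01 CPM in KI in LIF. The interactions of Rpl37a and Rpl7, both proteins of the large subunit, were -1.53 ± 0.24 (SE; adjusted p = 0.015) and -3.02 ± 0.50 (SE; adjusted p = 0.019). Of 80 ribosomal protein genes tested these 3 were called, and the list median was -0.24. The rise of Rpl7 in WT did not pass the test (adjusted p = 0.058).

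Eif4a3, a helicase of the exon junction complex, was at 11.7, 10.3 and 11.8 CPM in WT in LIF/2i and 21.9, 18.99 and 18.8 CPM in WT in LIF. Knock-in libraries gave 26.7, 30.2 and 24.3 CPM in LIF/2i against 13.8, 10.7 and 10.3 CPM in LIF, with an interaction of -2.04 ± 0.27 (SE; adjusted p = 0.0081). WT in LIF/2i and KI in LIF overlapped at the low end. Actb, cytoplasmic β-actin, was at 759.5, 686 and 749 CPM in WT in LIF/2i and 912, 949 and 903 CPM in WT in LIF. Across the KI libraries it was at 891, 874 and 774 CPM in LIF/2i against 589, 536 and 478 CPM in LIF, with an interaction of -0.997 ± 0.15 (SE; adjusted p = 0.012). Its 3 lowest libraries were KI in LIF. Ubl5, a ubiquitin-like protein of splicing, was at 29.1, 34.3 and 35.4 CPM in WT in LIF/2i and 42.9, 55.3 and 56.1 CPM in WT in LIF. KI libraries were at 70.7, 64.3 and 57.9 CPM in LIF/2i against 41.1, 45.3 and 35.5 CPM in LIF, with an interaction of -1.31 ± 0.23 (SE; adjusted p = 0.026). Its 3 highest libraries were KI in LIF/2i. Pabpc4, a poly(A)-binding protein, was at 1.42, 0.8803 and 1.23 CPM in WT in LIF/2i and 3.19, 2.44 and 3.34 CPM in WT in LIF. The level in KI was 4.28, 7.297 and 2.54 CPM in LIF/2i against 0.769, 1.01 and 1.34 CPM in LIF, with an interaction of -3.48 ± 0.67 (SE; adjusted p = 0.049) from a mean under 5 CPM. The rise of Pabpc4 in WT did not pass the test (adjusted p = 0.084).

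Without 1 library at a time, mt-Co3, Rplp0 and Eif4a3 kept their calls in all 12 fits, mt-Co2 in 10, Actb in 9, Rpl37a and H2ac18 in 7, Rpl7 in 6, Ubl5 and Sap18 in 4, and Hist1h4m, Ahcy and Pabpc4 in 2. The adjusted p reached 0.056 for mt-Co2, 0.053 for Actb, 0.060 for H2ac18 and 0.096 for Hist1h4m without WT LIF replicate 1. It reached 0.081 for Rpl37a, 0.081 for Rpl7 and 0.10 for Ubl5 without WT LIF replicate 3. For Ahcy (0.14) and Sap18 (0.15) the highest value came without KI LIF/2i replicate 2, and for Pabpc4 (0.15) without KI LIF replicate 2.

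Rhox9, a homeobox gene of the trophoblast and germ line with the close paralogue Rhox6, rose in WT and did not pass the test in KI. It was at 2.48, 3.52 and 1.97 CPM in WT in LIF/2i and 39.2, 48.8 and 36.4 CPM in WT in LIF. For KI the values were 1.53, 4.99 and 5.36 CPM in LIF/2i against 6.46, 6.66 and 8.82 CPM in LIF, and WT in LIF lay above the other 9 libraries. Its interaction was -3.09 ± 0.54 (SE; adjusted p = 0.027), with the call kept in 4 of 12 fits without 1 library and an adjusted p of 0.095 without KI LIF/2i replicate 2. Rhox6 was at -2.84 and was not called. Of 17 tested trophoblast genes Rhox9 was the called member, and the list median was -1.20. In WT 12 of them rose in LIF and 1 fell, where 9.97% of all genes rose and 11% fell. In KI 3 rose and 2 fell, where 8.4% of all genes rose and 10.4% fell.

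The summed level of the trophoblast list was 1024 to 1314 CPM in WT in LIF/2i, 2758 to 4324 CPM in WT in LIF, 514 to 736 CPM in KI in LIF/2i and 1156 to 1504 CPM in KI in LIF. Its defining regulators Cdx2 and Elf5 were too low to be tested. The keratin genes of simple epithelia followed the list, with Krt8 at -2.20 and Krt18 at -2.85, both short of the threshold. Of 18 endoderm genes none was called, with a median of -1.03 and summed levels of 1284 to 1466 CPM in WT in LIF/2i, 2028 to 2562 CPM in WT in LIF, 1554 to 1764 CPM in KI in LIF/2i and 1348 to 1614 CPM in KI in LIF. Endoderm genes nearest to a call were Lrp2, an endocytic receptor, with an interaction of -1.91 ± 0.42 (SE; adjusted p = 0.077), and Lama1, a laminin chain, with -1.31 ± 0.29 (SE; adjusted p = 0.084). Foxa2, Afp and Ttr were too low to be tested.

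Of 15 fibroblast genes none was called, with a median of -1.04, and the summed level was 3907 to 4997 CPM in WT in LIF/2i, 1815 to 2610.2 CPM in WT in LIF, 4321 to 4736 CPM in KI in LIF/2i and 1743 to 2521 CPM in KI in LIF. Most of this sum was Fn1, the gene of fibronectin, with group means of 4008 CPM in WT in LIF/2i, 1339 CPM in WT in LIF, 4152 CPM in KI in LIF/2i and 1369 CPM in KI in LIF. Tagln, a smooth muscle actin-binding protein, was at 0, 0.587 and 0.492 CPM in WT in LIF/2i and 32.9, 165 and 38.2 CPM in WT in LIF. With the knock-in it was at 10.2, 48.4 and 37.8 CPM in LIF/2i against 115, 56.6 and 71.7 CPM in LIF, and the spread within groups was wide, with an adjusted p of 0.065. Lum, Dcn, Postn and Lox were too low to be tested. Of 7 tested neuroectoderm genes and 4 tested mesoderm genes none was called, and no gene of the 2-cell-like state was high enough to be tested. Trophoblast and endoderm sums were thus highest in WT in LIF, the group in which Psat1, Atf4 and Rhox9 were highest. The fibroblast sum, most of it Fn1, was higher in LIF/2i in both genotypes, unlike most members of that list. In WT 9 of the 15 fibroblast genes rose in LIF and 1 fell, where 9.97% of all genes rose and 11% fell. In KI 6 rose and 1 fell, where 8.4% of all genes rose and 10.4% fell. The part of these cell types in the interactions was not tested.

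**Figure D4:**
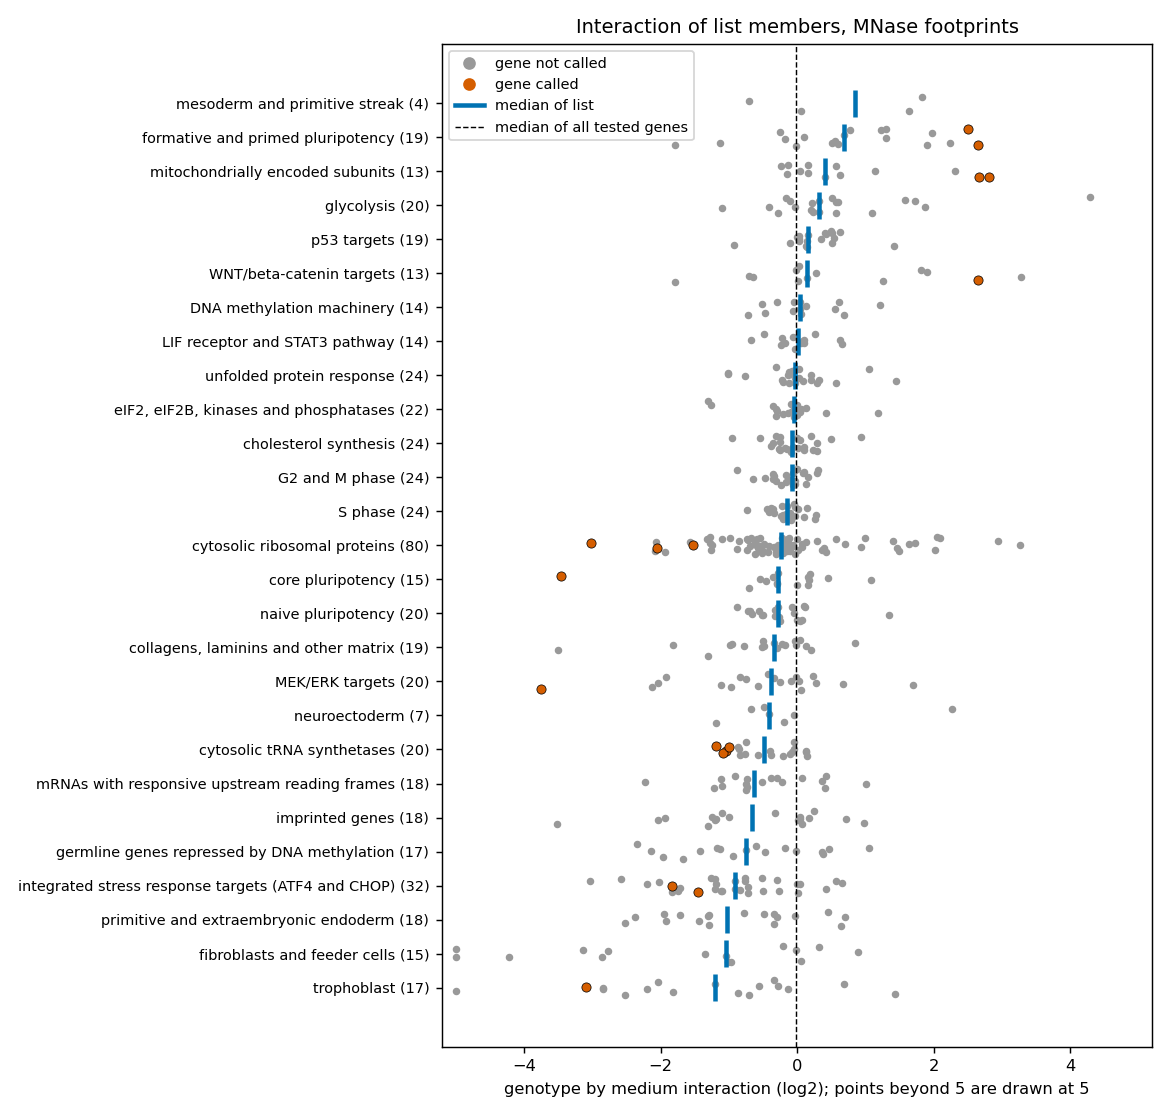
Interaction (log2) of the tested members of each gene list with at least 4 of them, with called genes in orange, the list median as a blue bar and the median of all tested genes as a dashed line. The ATF4 and CHOP targets have a median of -0.91, the tRNA synthetases of -0.49 and the formative genes of 0.69.

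Across the 28 lists, which hold 610 genes of the count table, 9 had a called member and 16 of the 43 called genes were in a list. No member was called among eIF2 and eIF2B subunits, the unfolded protein response, DNA methylation enzymes, imprinted genes, p53 targets, glycolysis, cholesterol synthesis, the LIF receptor pathway or cell cycle genes. Among 17 germline genes that DNA methylation represses the median was -0.75, again without a call. Slc16a3, a lactate exporter, was the glycolysis gene nearest to a call, at 105, 22.3 and 276 CPM in WT in LIF/2i and 36.5, 26.9 and 45.2 CPM in WT in LIF. Levels in KI were 15.1, 5.38 and 7.34 CPM in LIF/2i against 37.5, 53.8 and 53.7 CPM in LIF. The 3 WT libraries in LIF/2i spanned a wide range, and its interaction was 4.29 ± 0.90 (SE; adjusted p = 0.065).

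Without KI replicate 1 in both media, an analysis chosen after seeing the data, 483 of 12672 genes were called (3.81%), 186 positive and 297 negative, and these included all 43. The 43 are 8.90% of the 483. In that fit 8 of the ATF4 and CHOP targets, 10 of the tRNA synthetases, 4 of the genes with upstream reading frames, 4 of the trophoblast genes and 3 of the endoderm genes were called as lower and none of these lists had a member called as higher. Of the formative genes 3 were called as higher. These counts stand beside 297 of all 12672 genes called as lower and 186 as higher. In other lists 8 ribosomal protein genes were called as lower and 3 as higher. Among germline genes 4 were called as lower, as were 3 of the collagen, laminin and other matrix genes, while 3 mitochondrial genes were called as higher. The core pluripotency, LIF receptor and eIF2 lists each had 1 member called in each direction. The naive genes Zfp57, Klf5 and Nanog were called as lower. Atf4 had an interaction of -0.80 ± 0.21 (SE; adjusted p = 0.053). For Lin28a the interaction was -3.11, for Asns -2.04, for Psat1 -1.51 and for Lef1 2.22.

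The 8 libraries cut with RNase I, 2 in each of the same 4 groups, were not used for the calls. Across 10406 genes, the difference between replicates 1 and 2 with MNase correlated with that with RNase I at 0.685 in WT in LIF/2i, 0.595 in WT in LIF, 0.773 in KI in LIF/2i and 0.73 in KI in LIF, so libraries of the same number deviated together. The labels do not say whether they came from the same cultures, and the RNase I values are not taken as independent samples. In them 0 of 12095 genes passed edgeR's test after adjustment, with 640 (5.29%) at an unadjusted p under 0.05, and DESeq2 called 27. Of the 43 genes, 42 could be tested. The sign was the same in 37 of them, against 64.0% of the 12046 genes tested with both nucleases, and 19 had an unadjusted p under 0.05, all with the same sign. Over the 42 genes the MNase and RNase I interactions had correlations of 0.703 (Pearson) and 0.698 (Spearman). This is a description over genes that share libraries and, by the correlations above, deviations common to libraries of the same number. Total counts with RNase I were 8956594 to 22916734 in WT in LIF/2i, 4011036 to 4437767 in WT in LIF, 4366587 to 16359039 in KI in LIF/2i and 1965050 to 2285755 in KI in LIF, so that depth separated the media within each genotype.

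Among amino acid genes the RNase I interaction was -1.19 ± 0.25 for Psat1, -1.37 ± 0.33 for Asns, -1.92 ± 0.38 for Pck2, -0.75 ± 0.20 for Nars and -1.07 ± 0.24 for Cars (log2, SE). Asns was at 1725 and 2006 CPM in WT in LIF/2i, 1310.3 and 922 CPM in WT in LIF, 1891 and 1457 CPM in KI in LIF/2i and 456 and 321 CPM in KI in LIF, so that KI in LIF was again the lowest. Psat1 was at 117 and 129.5 CPM in WT in LIF/2i, 396 and 299 CPM in WT in LIF, 114 and 139.8 CPM in KI in LIF/2i and 156 and 158 CPM in KI in LIF, with WT in LIF the highest. The median over the ATF4 and CHOP targets was -0.90 and over the synthetases -0.35. Lin28a, Eras and Spry4 had RNase I interactions of -3.35 ± 0.39, -2.204 ± 0.52 and -2.49 ± 0.60. Lin28a was at 7.69 and 6.35 CPM in WT in LIF/2i, 122 and 159.8 CPM in WT in LIF, 98.3 and 61.1 CPM in KI in LIF/2i and 179 and 134 CPM in KI in LIF. For Lef1 the RNase I interaction was 3.94 ± 0.62, for Sox3 0.82 ± 0.54 and for Rhox9 -3.69 ± 0.66.

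The RNase I value was of opposite sign for Rpl37a at 0.42 ± 0.34, Rpl7 at 0.35 ± 0.63, Ubl5 at 0.15 ± 0.34, Hist1h4m at -0.34 ± 0.70 and Sap18 at -0.02 ± 0.87. It was near 0 for Actb (-0.02), Cdc5l (-0.10), Eif4a3 (-0.13), Paics (-0.14), H2ac18 (0.10) and Ahcy (0.08). For mt-Co3 it was 0.51 ± 0.48 and for mt-Co2 0.66 ± 0.69, well under the MNase values of 2.66 and 2.81. The median over ribosomal protein genes was 0.14 with RNase I and -0.24 with MNase. The difference between the nucleases was called for 0 of 13045 genes in edgeR, with 369 (2.83%) at an unadjusted p under 0.05, 19 of them among the 43. The 43 were chosen by large MNase interactions, which enter this difference. Smaller values with RNase I can follow from that choice, and nothing further is read from the 19.

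**Figure D5:**
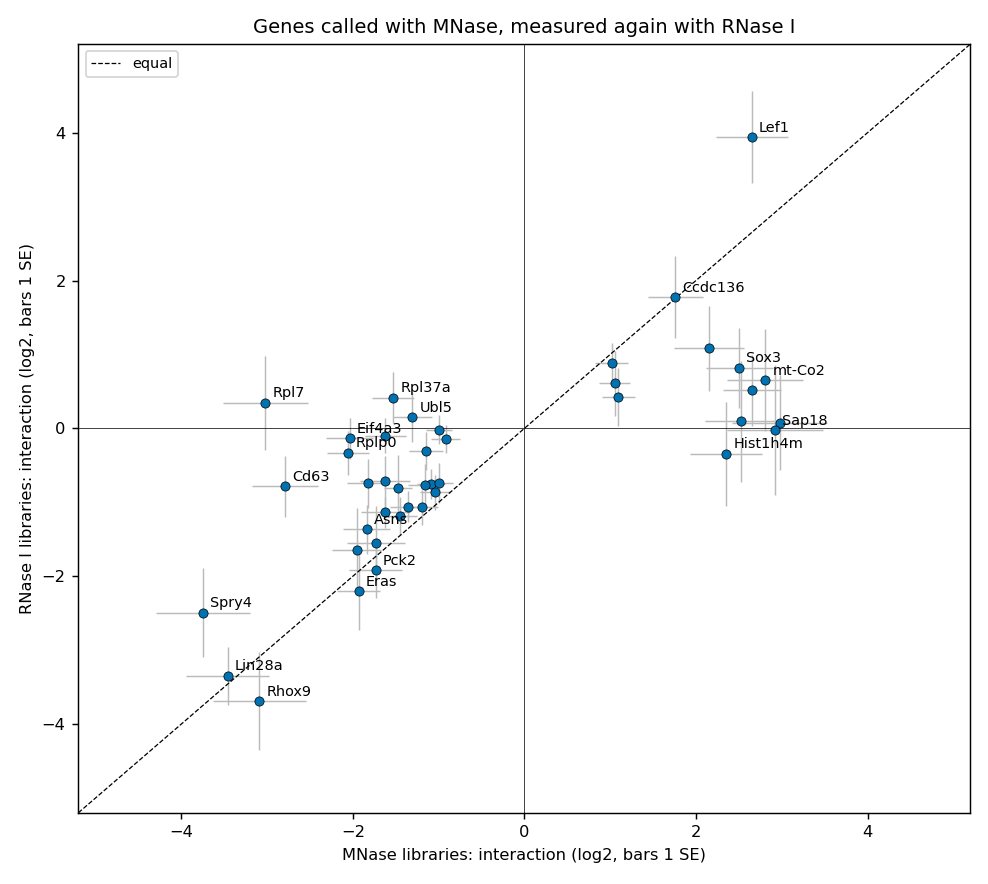
Interaction (log2) of 42 called genes with MNase on the x axis and RNase I on the y axis, with bars of 1 SE and a dashed line of equal values. Lin28a, Rhox9 and Eras lie near the line, and Rpl7, Rpl37a, Ubl5, Hist1h4m and Sap18 lie across 0.

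Gsto1, Ptges and Spp1, from the set that fell in KI, had RNase I interactions of -0.80 ± 0.44, -1.64 ± 0.56 and -1.06 ± 0.21. In the same set Slc25a20 was at -0.76 ± 0.27 and Amotl2 at -0.71 ± 0.34. Cox5a was at -0.30 ± 0.26, against -1.15 with MNase, and Paics at -0.14 ± 0.19, against -0.92. Cd63 was at -0.79 ± 0.41, against -2.79 ± 0.39 with MNase. Ccdc136 was at 1.78 ± 0.56 and Trim44 at -1.55 ± 0.50, close to their MNase values.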

How the data were processed

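Footprints of 25 to 40 nt were sequenced from 20 libraries, of which the 12 MNase libraries gave the results. The 8 RNase I libraries gave a second measurement of the same groups. Their replicate numbers match those of MNase libraries, but the labels do not say whether the cultures were the same. The authors deposited raw counts in coding sequences for 22416 gene names. Reads were handled by the authors with Bowtie 1.3.0, UMI-tools 1.0.1 and cutadapt 3.4, per the submitters' processing notes, and the genome build was not stated in the sources used here. Counts were fitted with edgeR 4.0.16 (R 4.3.3) as 4 group means with TMM scaling and its expression filter, and p-values were two-sided and Benjamini-Hochberg adjusted over all tested genes. Alternatives used limma 3.58.1 and DESeq2 1.42.0. The fit was also run on simulated counts with independent libraries, without deviations shared between replicates or a KI replicate 1 effect. That run does not bear on how either of these moves the number of calls. Of the names, 21755 matched current symbols, 95 matched synonyms and 566 were kept.

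The members and the lists were chosen with earlier results of these data known. The rule named called genes of at least 5 CPM by size of interaction (8 each way), the 8 smallest adjusted p, the 3 smallest p of each kind of response and sign, up to 6 called members of each list, up to 2 members of a list without a call, and Eif2s1 and Atf4. The other called genes and uncalled list members were named after their values were seen.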

Additional observations from a re-analysis of the deposited data

Results flagged for a closer look

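Each of the 43 genes called for the interaction is a gene whose medium response differed between the genotypes by the test of that difference itself, with the log2 interaction in brackets. Called in WT and not in KI were Rhox9 (-3.09), Clcn5 (-1.82), Trim44 (-1.73), Psat1 (-1.45), Cars (-1.19), Nars (-1.09), Aars (-1.04), Yars (-1.0), Clcn3 (1.02) and Pidd1 (1.096). Called in KI and not in WT were Pabpc4 (-3.48), Rpl7 (-3.02), Cd63 (-2.79), Ptges (-1.96), Amotl2 (-1.63), Cdc5l (-1.62), Gsto1 (-1.47), Spp1 (-1.36), Slc25a20 (-1.16), Cox5a (-1.15), Paics (-0.92), Zfhx3 (1.05), Abhd8 (2.15), mt-Co2 (2.81), Sap18 (2.92) and Ahcy (2.98). Opposite directions were found for Rplp0 (-2.06), Eif4a3 (-2.04), Pck2 (-1.74), Rpl37a (-1.53), Ubl5 (-1.31), Actb (-0.997), Ccdc136 (1.76), Hist1h4m (2.35), Sox3 (2.505), H2ac18 (2.52), Lef1 (2.65) and mt-Co3 (2.66). Both genotypes changed the same way by different amounts for Spry4 (-3.75), Lin28a (-3.46), Eras (-1.93), Asns (-1.84) and Tmsb4x (-1.62).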

How the results depend on the processing

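The called genes kept the sign of their interaction in every one of the 24 alternatives that tested them (40 of the 43 at a mean of at least 5 CPM, 42 when thinned and 43 in the others), and 6 (Eras, Psat1, Gsto1, Eif4a3, Cd63 and Lin28a) kept the call in all 24. The count of 43 was 41 with DESeq2 size factors or library totals, 56 without a filter and 39 at a mean of at least 5 CPM. It was 44 with limma-voom, which held 38 of the 43 and lost Spry4, Rhox9, Trim44, Sap18 and Pabpc4. It moved to 215 with DESeq2 (all 43 among them, 504 genes without an adjusted p), 23 with libraries thinned to the smallest total (21 of the 43), 71 with both nucleases in 1 fit (40 of the 43, with same-numbered libraries taken as separate samples), 483 without KI replicate 1 in both media and 169 without replicate 1 in all groups (39 of the 43), the last 2 settings being chosen after seeing the data. Leaving out 1 library gave 10 to 145. The cause was not tested. Thinning and leaving out libraries leave fewer reads or samples. The count nevertheless rose to 98 without KI LIF replicate 1 and to 145 without KI LIF/2i replicate 1.

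Deviations from the group mean were compared between same-numbered libraries of the 2 media. They correlated at 0.0153, 0.0778 and 0.0346 in WT and 0.563, 0.315 and 0.393 in KI. In KI, LIF/2i replicate 2 with LIF replicate 3 gave 0.367, and LIF/2i replicate 3 with LIF replicate 2 gave 0.404. The numbers thus set KI replicate 1 apart, did not tell KI replicates 2 and 3 apart, and do not pair all samples. A replicate block gave 55 calls (40 of the 43) and a replicate block within genotype 273 (42 of the 43). With RNase I the count of 0 became 27 with DESeq2 and 9 without a filter, stayed 0 with a replicate block, and was 0 to 2 without 1 library. Under the block within genotype, the interaction of Atf4 was -0.91 with an adjusted p of 0.033 (0.053 to 0.54 under the others). In that fit 9 ATF4 and CHOP targets, 8 synthetases and 3 genes with upstream reading frames were called as lower, against 2, 4 and 0. Over all 12806 genes it called 174 as lower and 99 as higher, against 30 and 13. Other lists gained calls too, with 7 ribosomal protein and 3 trophoblast genes lower and 4 formative genes higher, against 3, 1 and 2. Thinned libraries lost Clcn5, Rplp0, mt-Co3, Ptges, Cdc5l, Sox3, Rpl37a, H2ac18, Rpl7, Yars, Slc25a20, Ubl5, Rhox9, Amotl2, Pidd1, Ccdc136, Clcn3, Ahcy, Abhd8, Sap18 and Trim44, and could not test Pabpc4.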
